A study of Mus musculus with 6 samples.

Results

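The 5 transcripts described here encode the cell surface receptors for prostaglandin E2, named EP1 to EP4, and the prostacyclin receptor IP. They were taken by gene symbol (Ptger1, Ptger2, Ptger3, Ptger4 and Ptgir), a rule that uses no values, from a count table of 23122 genes, and all 5 are in it. The rule was set with earlier results of these data known. The table covers 6 tumors grown from CT26, a mouse colorectal carcinoma line, of which 500000 cells were placed under the flank skin of female BALB/c mice aged 6 to 8 weeks. Once tumors measured 100 to 200 mm3 the mice were randomized to vehicle (3 tumors) or to 50 mg/kg of oral TP-18 once a day (3 tumors), in both cases for 3 weeks. TP-18 is described in the series title as a dual antagonist of EP2 and EP4, so Ptger2 and Ptger4 are the genes of its targets. Bulk RNA from whole tumors was sequenced, and no tissue other than tumor is among the samples. No label ties the samples to separate mice, so p-values cover only the spread between these samples, which may be technical. Totals were 34813482 to 36489081 reads per tumor.

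Prostaglandin E2 is a lipid mediator made from arachidonic acid by cyclooxygenases and prostaglandin E synthases. EP2 and EP4 couple to the stimulatory G protein Gs and raise cyclic AMP, EP3 couples mainly to the inhibitory protein Gi, and EP1 is linked to calcium signals. IP, which binds the short-lived prostaglandin I2 (prostacyclin), also couples to Gs and is known for relaxing vessels and holding platelets at rest. In tumors, signalling through EP2 and EP4 on T cells, NK cells, dendritic cells and macrophages is known to dampen their activity, which is the setting in which EP2 and EP4 antagonists are studied.

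The DNA just before the start of the genes of the drug's targets is shown because these sequences differ in base composition while the transcripts of both had higher values in all TP-18 tumors. Each is the 250 bases before the start of the gene, 5′ to 3′ on the gene's strand, from RefSeq on GRCm38.p6, at chr15:5244188-5244437 (minus strand) for Ptger4 and chr14:44987861-44988110 (plus strand) for Ptger2. Capitals mark a GC box (GGGCGG) or a CCAAT box (CCAAT) on either strand.
Ptger4: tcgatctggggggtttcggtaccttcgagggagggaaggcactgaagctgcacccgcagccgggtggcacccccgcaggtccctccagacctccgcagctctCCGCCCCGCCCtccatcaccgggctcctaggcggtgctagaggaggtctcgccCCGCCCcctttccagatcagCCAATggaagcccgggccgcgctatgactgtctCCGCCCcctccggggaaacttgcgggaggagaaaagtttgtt
Ptger2: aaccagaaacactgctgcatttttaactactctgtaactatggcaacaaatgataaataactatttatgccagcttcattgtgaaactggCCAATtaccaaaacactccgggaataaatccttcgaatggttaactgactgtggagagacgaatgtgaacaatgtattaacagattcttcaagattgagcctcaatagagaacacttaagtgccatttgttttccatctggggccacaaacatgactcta

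The Ptger4 sequence was 66.8% G and C, above 85.8% of 32841 such windows in the mouse genome, whose median was 52.4%, and the Ptger2 sequence was 38% G and C, above 8.44% of them. Ptger4 held 4 GC boxes and 1 CCAAT box, and Ptger2 held 1 CCAAT box and 0 GC boxes. Among all windows 32.7% held a GC box and 33.9% a CCAAT box. The sequences of Ptgir and Ptger3, at 63.6% and 62% G and C, held 2 and 3 GC boxes. The same 4 windows held 0 matches to the cyclic AMP response element TGACGTCA (1.55% of all windows), its shorter form TGACG (17.8%), the interferon gamma element TTCNNNGAA (7.02%), the core of the interferon-stimulated response element (2.98%), the AP-1 site TGANTCA (6.75%) or the TATA box TATAAA (12.4%). These are matches of letters only, each motif was searched on both strands, the shorter cyclic AMP element lies within the longer, and a window for Ptger1 was not used here.

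Ptger4 (Entrez 19219) was higher in TP-18 tumors than in vehicle tumors. This receptor raises cyclic AMP and is found on lymphocytes, dendritic cells, macrophages and many tumor cells. It had 93, 58 and 73 reads in vehicle tumors 1, 2 and 3, and 268, 215 and 384 reads in TP-18 tumors 1, 2 and 3. Scaled to reads per 1000000 of library size (CPM), these were 2.65, 1.78 and 2.28 in vehicle and 7.20, 5.88 and 9.85 in TP-18 tumors. The lowest TP-18 tumor was above the highest vehicle tumor, and TP-18 tumor 3 stood highest. The means were 2.23 ± 0.44 and 7.64 ± 2.02 CPM (SD, n = 3 per group), 3.42-fold higher, with a 95% interval of 2.24 to 5.22. The log2 change of 1.77 ± 0.27 (SE) had an adjusted p of 0.0077 in edgeR's quasi-likelihood test, adjusted over all 14189 genes tested. Of the 4 receptors that could be tested, Ptger4 alone was called. Of all tested genes 7.09% were called higher, 5.26% lower and 12.4% in either direction. Ptger4 stayed called with any 1 library left out, at adjusted p-values of 0.00783 to 0.0385. In bulk tumors, more cells that carry a transcript and more of it per cell cannot be told apart.

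**Figure D1:**
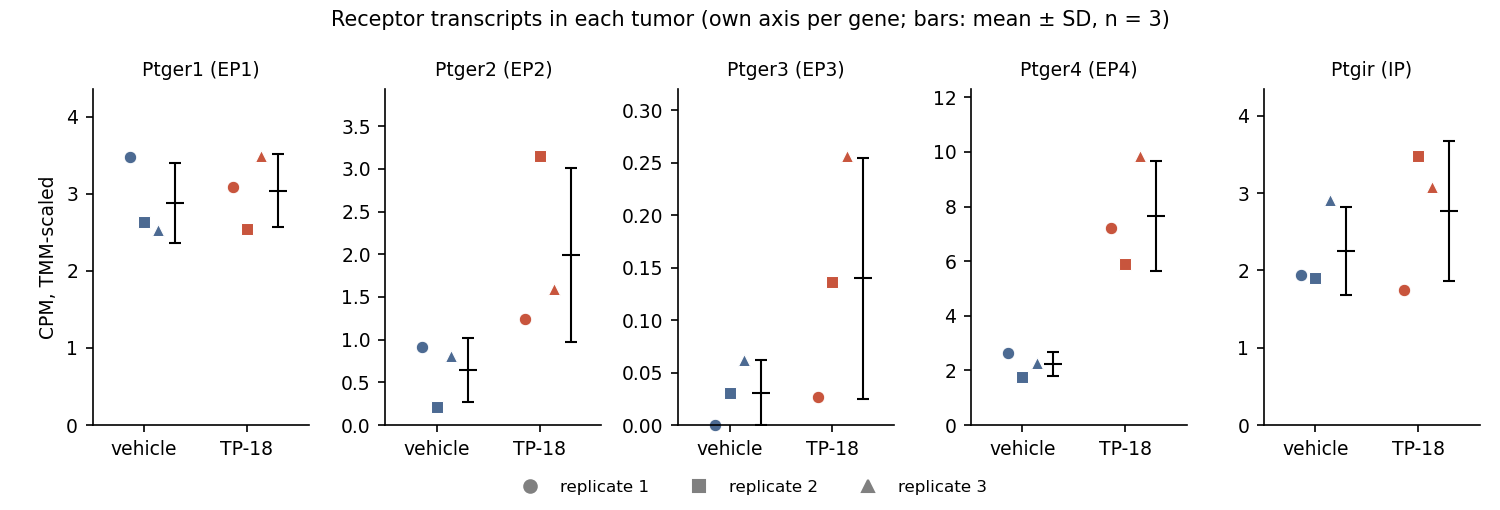
Each panel plots the level of 1 receptor in CPM (vertical axis, linear, its own scale) for the 3 vehicle and 3 TP-18 tumors, with marker shapes for the replicate number and bars for the mean ± SD. The Ptger4 values of TP-18 tumors, 5.88 to 9.85, lie above all vehicle values, while those of Ptger1 and Ptgir overlap.

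Ptger2 (Entrez 19217), the other receptor the drug is directed at, is also coupled to cyclic AMP and is known to be inducible in leukocytes. It had 32, 7 and 26 reads in the vehicle tumors and 46, 115 and 62 in the TP-18 tumors, or 0.911, 0.214 and 0.812 against 1.24, 3.15 and 1.59 CPM. The groups did not overlap, as was true in that direction of 18.0% of all tested genes and in either direction of 35.8%, but vehicle 1 and TP-18 1 lay close. Vehicle 2 was the low tumor and TP-18 2 the high one. The means were 0.646 ± 0.377 and 1.99 ± 1.02 CPM, 3.06-fold apart with a 95% interval of 1.22 to 7.71. The log2 difference of 1.62 ± 0.58 (SE) had a p of 0.0232 before adjustment and 0.105 after it in edgeR's test, so Ptger2 missed the threshold. DESeq2 gave the same size, 1.61, with an adjusted p of 0.0397, and called 9.13% of its tested genes higher and 16.7% in either direction. With 65 reads over the vehicle tumors, the precision for Ptger2 was low.

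The levels of Ptger4 and Ptger2 were compared within each tumor to ask whether their changes differed. Ptger4 exceeded Ptger2 by 2.91, 8.29 and 2.81 times in CPM in vehicle tumors 1 to 3 and by 5.83, 1.87 and 6.19 times in TP-18 tumors 1 to 3. The groups overlapped, with TP-18 2 below and vehicle 2 above all others. The mean log2 ratio was 2.03 ± 0.89 in vehicle and 2.03 ± 0.97 in TP-18 tumors, a difference of -0.0011 (exact permutation test, two-sided, p = 1, where 3 against 3 cannot give less than 0.1). The spread within groups limits what this comparison can show. The difference became 0.51 without vehicle 2 and 0.56 without TP-18 2.

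Ptgir (Entrez 19222), the prostacyclin receptor, had 68, 62 and 93 reads in vehicle and 65, 127 and 120 in TP-18 tumors. In CPM these were 1.94, 1.9 and 2.90 against 1.75, 3.48 and 3.08, so that TP-18 1 was the lowest of all tumors and vehicle 3 was close to TP-18 3. The log2 difference was 0.30 ± 0.34 (SE), with a 95% interval of -0.48 to 1.08 and an adjusted p of 0.589 in edgeR's test. The interval leaves room for a 2.11-fold higher or a 0.718-fold level.

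Ptger1 (Entrez 19216), the receptor linked to calcium, had 122, 86 and 81 reads in vehicle and 115, 93 and 136 in TP-18 tumors, with CPM of 3.47, 2.63 and 2.53 against 3.09, 2.55 and 3.49. The groups covered the same range. The log2 difference was 0.08 ± 0.25 (SE; 95% interval -0.50 to 0.66, adjusted p = 0.865 in edgeR's test). The gene lies on chromosome 8, 83666644 to 83672756, plus strand, GRCm38.p6. The sources used here do not say whether counting used strand, so reads from either strand of its exons may be included, and the Ptger1 values are uncertain for that reason.

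Ptger2 (chromosome 14, 44988111 to 45003820, plus strand) shares 246 and 144 exonic bases, 4.74% and 2.77% of its own, with the noncoding genes Gm17173 and Gm49364 on the minus strand, which were not analysed here. The RefSeq spans of Ptger4 (chromosome 15, 5233399 to 5244187, minus strand), Ptgir (chromosome 7, 16906490 to 16910905, plus strand) and Ptger3 (chromosome 3, 157566821 to 157644758, plus strand) overlap no other GENCODE gene. A longer GENCODE model of Ptger4 starts at 5206661 and shares 1015 exonic bases, 15.3% of its own, with the pseudogene Gm15937, which was not analysed here. It shares 82 bases, 1.23%, with Ttc33, which was at 26.4 to 33.7 CPM with vehicle and 28.1 to 30.8 CPM with TP-18.

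Ptger3 (Entrez 19218), the receptor that lowers cyclic AMP, was nearly absent. It had 0, 1 and 2 reads in vehicle and 1, 5 and 10 in TP-18 tumors and did not pass the filter on low counts. The 0 reads in vehicle 1 allow up to 3 reads, or 0.0854 CPM, counting error only. Over the groups, 3 reads stood against 16, a ratio of 4.72 after scaling with an exact 95% counting interval of 1.35 to 25.3. That interval covers counting error only and says nothing of the spread between tumors, in which TP-18 1 with 1 read was level with vehicle 2. Without a filter, edgeR gave Ptger3 an adjusted p of 0.331, with 4.43% of 23122 genes called higher. Different tails of EP3 come from alternative splicing, which gene counts do not separate.

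**Figure D2:**
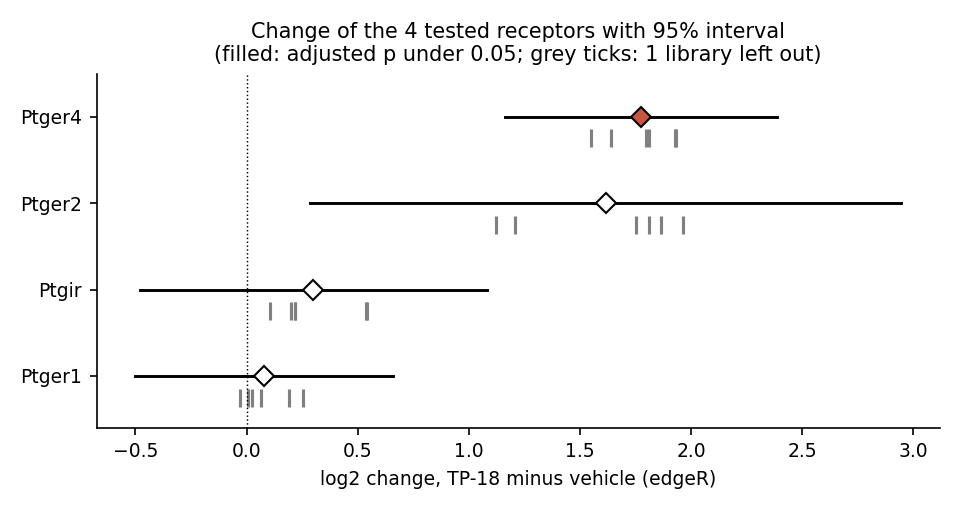
The log2 change of TP-18 minus vehicle (horizontal axis) is drawn for the 4 tested receptors as a diamond with its 95% interval, filled where the adjusted p was under 0.05, and grey ticks give the values with 1 library left out. The Ptger4 interval runs from 1.16 to 2.38, that of Ptger2 from 0.29 to 2.95, and those of Ptgir and Ptger1 span 0.

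To compare levels between receptors, the authors' FPKM values (reads divided by gene length and library total) were used, with implied gene lengths of 2174 to 5795 bases. In vehicle tumors the order of mean FPKM was Ptger4 at 0.642 ± 0.147, Ptgir at 0.638 ± 0.142, Ptger1 at 0.475 ± 0.108, Ptger2 at 0.144 ± 0.086 and Ptger3 at 0.0132 ± 0.0132 (SD, n = 3). The first 3 had overlapping ranges and changed places between tumors, while Ptger2 lay below them and above Ptger3 in all 3. In TP-18 tumors Ptger4 led at 2.42 ± 0.68 FPKM, apart from Ptgir at 0.871 ± 0.282 in every tumor. Ptgir, Ptger1 at 0.552 ± 0.095 and Ptger2 at 0.485 ± 0.241 FPKM overlapped in range with their neighbours, and Ptger3 at 0.068 ± 0.0566 FPKM stayed below all others. The place of Ptger1 in either order, above Ptger2 included, is uncertain, since reads from either strand of its exons may be counted.

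The summed FPKM of the 5 receptors was 1.52 to 2.19 in vehicle and 3.70 to 5.31 in TP-18 tumors. Ptger4 made up 31.0% to 36.4% of that sum in vehicle and 43.7% to 61.5% in TP-18 tumors. Ptger2 took 3.08% to 9.69% and 7.44% to 18.1%, with TP-18 2 the tumor in which its share was highest and that of Ptger4 lowest within the group. Shares of Ptger1 and Ptgir were smaller in TP-18 tumors while their FPKM values overlapped between groups, since the sum itself was larger. The sum and all shares include the uncertain Ptger1 values. All 5 are transcripts of low abundance. Ptger4 lay above 18.4% to 21.4% of tested genes by FPKM in vehicle and above 27.7% to 35.3% in TP-18 tumors, and Ptger2 above 2.88% to 10.8% and 11.0% to 17.9%.

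**Figure D3:**
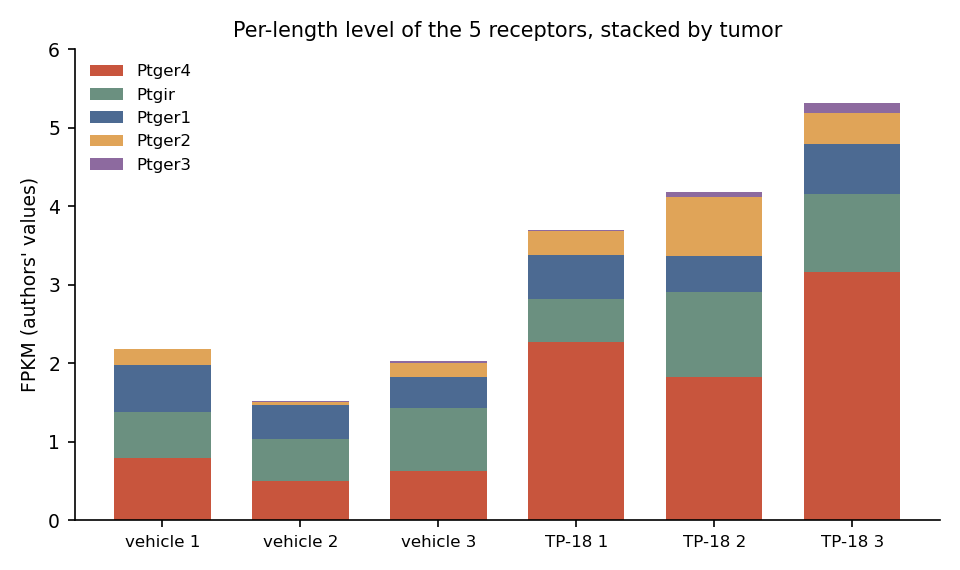
Stacked bars give the authors' FPKM of the 5 receptors in each of the 6 tumors (vertical axis, linear from 0). The Ptger4 segment is 0.501 to 0.795 FPKM in vehicle and 1.83 to 3.16 FPKM in TP-18 tumors and is the tallest segment in every TP-18 bar.

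Other genes of the same signalling route were counted from 8 lists, in the order from ligand to response. For supply and removal of the ligands, 0 of 10 tested genes were called by edgeR, 4 had an unadjusted p under 0.05, as did 29.9% of all tested genes, and DESeq2 called 3 lower, as it did 7.55% of its tested genes. The median log2 difference was -0.11, against -0.0084 over all tested genes, and its sign turned on FPKM (0.03), where the median of all genes moved up to 0.13. The member with the smallest p was Pla2g4a, the phospholipase that frees arachidonic acid, at 112 ± 10.2 and 83.0 ± 12.7 CPM (log2 difference -0.43 ± 0.12, adjusted p = 0.0603). Ptgs2, the inducible cyclooxygenase, chosen after its values were seen, averaged 485 ± 157 CPM with vehicle and 223 ± 65.5 CPM in TP-18 tumors (log2 difference -1.12 ± 0.31, adjusted p = 0.0669). For both genes the highest TP-18 value was below the lowest vehicle value, which held for 17.8% of all tested genes.

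The remaining prostanoid receptors were scarce. Of 3 found in the counts, 2 were tested and 0 called by edgeR, with 1 at an unadjusted p under 0.05 and 1 called higher by DESeq2. The shares over all tested genes were 29.9% for such a p and 9.13% for a higher call by DESeq2. Tbxa2r, the thromboxane receptor of platelets and smooth muscle, had 12, 2 and 4 reads in vehicle and 13, 53 and 46 in TP-18 tumors (log2 difference 2.46 ± 0.73, adjusted p = 0.0633). As with Ptger2, TP-18 2 had the most reads. Ptgdr2, a prostaglandin D2 receptor, had 0, 2 and 0 reads in vehicle and 0 in each TP-18 tumor.

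Among other receptors and partners that signal through Gs, 5 of 9 tested genes were higher and 0 lower, with a median log2 change of 1.31. Over all tested genes edgeR called 7.09% higher and 5.26% lower. Gpr174, a lysophosphatidylserine receptor of lymphocytes, averaged 0.41 ± 0.148 CPM with vehicle and 2.57 ± 0.51 with TP-18, a rise of 2.63 ± 0.38 log2 units (adjusted p = 0.00709), and kept its call with any 1 library left out. Gpr65, an acid-sensing receptor of leukocytes, rose from 3.85 ± 2.15 to 14.7 ± 0.538 CPM (adjusted p = 0.0179). Leaving out vehicle 2 gave 0.0551, and leaving out a TP-18 library gave 0.0548 (tumor 1), 0.0549 (tumor 2) or 0.0622 (tumor 3). Hrh2, the histamine H2 receptor, rose by 1.31 ± 0.28 (adjusted p = 0.0254). That call held only without vehicle 1 and reached 0.0516 to 0.102 when vehicle 2, vehicle 3 or any TP-18 library was left out. The remaining calls, named after their values were seen, were Ramp1, an accessory protein of the receptor Calcrl, at 1.7 ± 0.43 and Adora2a, an adenosine receptor, at 1.31 ± 0.36 (adjusted p-values of 0.0408 and 0.0498). Leaving out 1 library, Ramp1 stayed called only without vehicle 1 and Adora2a only without TP-18 1, and the p-values otherwise reached 0.149 and 0.151.

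On the per-length scale, mean FPKM placed Ptger4 at rank 5 of 22 among these receptors, the prostanoid receptors and Ramp1 included, in vehicle and at rank 3 in TP-18 tumors. Among those above it in vehicle were Calcrl at 2.94 ± 0.286, Gpr65 at 1.73 ± 1.05 and Adora2b at 1.31 ± 0.838 FPKM. In TP-18 tumors Gpr65 at 7.20 ± 0.14 and Calcrl at 3.52 ± 0.63 FPKM stood above Ptger4, and Adora2b at 1.8 ± 0.37 FPKM was next below with a range that overlapped its own. Ptger2 was at rank 10 in both groups.

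For the G proteins and phospholipase C enzymes used by the receptors, 1 of 14 tested genes was higher and 1 lower, with a median of 0.07. Of all tested genes 7.09% were higher and 5.26% lower, so these counts are near those shares. Plcb2, the phospholipase C of blood cells, averaged 4.58 ± 2.04 CPM with vehicle and 12.4 ± 1.35 with TP-18, 1.44 ± 0.30 log2 units higher (adjusted p = 0.0239). Leaving out vehicle 2 ended this call (0.0966), as did leaving out any TP-18 library (0.0562 to 0.0802). Gnas, which encodes the Gs subunit that EP2, EP4 and IP use, went from 897 ± 25.6 to 709.7 ± 41.5 CPM (log2 change -0.34 ± 0.08, adjusted p = 0.0385). Of the fits with 1 library left out, Gnas passed only in the one without vehicle 1, and gave 0.0685 to 0.156 without vehicle 2, vehicle 3 or any TP-18 library.

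Of the adenylyl cyclases, protein kinase A subunits and cyclic AMP exchange factors, 1 of 14 tested was higher and 0 lower, with a median of 0.26. The shares over all tested genes were 7.09% higher and 5.26% lower. Adcy7, an adenylyl cyclase common in leukocytes, averaged 48.3 ± 4.33 CPM with vehicle and 71.5 ± 2.42 with TP-18, 0.57 ± 0.09 log2 units higher (adjusted p = 0.0085), and passed with any 1 library left out. Cyclic AMP phosphodiesterases, which end the signal, had 0 of 9 tested genes called by edgeR or by DESeq2, with a median of 0.09. Of these 1 had an unadjusted p under 0.05, as did 29.9% of all tested genes. The smallest p among the phosphodiesterases was that of Pde8a (7.24 ± 1.95 and 11.2 ± 2.72 CPM, adjusted p = 0.14). Receptor kinases and arrestins, which switch off activated receptors, were listed together with a partner protein of EP4. This list had 2 of 8 higher and 0 lower, with a median of 0.27. Grk3 had 89, 33 and 25 reads in vehicle and 182, 275 and 333 in TP-18 tumors, a log2 change of 2.27 ± 0.46 (adjusted p = 0.0233), with 0.0941 when vehicle 2 was left out, 0.0646 without TP-18 2 and 0.0824 without TP-18 3. Arrb2, beta-arrestin 2, rose by 0.60 ± 0.15 (adjusted p = 0.039), and with 1 library left out passed only without vehicle 1, with 0.0878 to 0.119 otherwise.

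Genes known to respond to cyclic AMP through CREB had 0 of 14 tested members higher and 2 lower, with a median log2 difference of -0.73. By the same edgeR test 7.09% of all tested genes were higher and 5.26% lower. DESeq2 called 1 higher and 6 lower, against 9.13% and 7.55% of its tested genes. On FPKM the median of this list was smaller in size, at -0.44, where the median of all genes was 0.13. Junb, an AP-1 transcription factor, fell from 278 ± 28 to 167 ± 14.5 CPM (log2 change -0.73 ± 0.10, adjusted p = 0.00614), a call kept with any 1 library left out. Areg, the EGF receptor ligand amphiregulin, had 675, 425 and 519 reads in vehicle and 145, 180 and 306 in TP-18 tumors (log2 change -1.54 ± 0.27, adjusted p = 0.0158), with 0.0577 without TP-18 2. Many of these genes also respond to growth factor and stress signals, so the list is not specific to the receptors.

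Markers of cells that can carry these receptors differed between the same tumors. Of 16 marker lists, 8 had summed CPM values that were higher in all TP-18 than in all vehicle tumors, 1 had lower ones and 7 overlapped. Among single tested genes, 18.0% were higher and 17.8% lower without overlap, and edgeR called 7.09% higher and 5.26% lower. T cell markers (9 of 9 tested called higher) summed to 14.2 to 22.3 CPM in vehicle and 63.3 to 76.7 in TP-18 tumors, and Trat1 alone of the 10 was at 0 in a library. NK cell markers (6 of 6) summed to 10.5 to 12.7 and 41.4 to 48.5 CPM, with none at 0. Dendritic cell markers (5 of 8) summed to 10.4 to 14.8 and 27.3 to 32.9 CPM, with Clec9a at 0 in at least 1 library. Macrophage and monocyte markers (3 of 12) summed to 881 to 1360 and 1647 to 1751 CPM, with none at 0. Mast cell markers (0 of 7) ran from 17.1 to 67.8 and 77.1 to 169 CPM with none at 0, and B cell markers (0 of 1 tested) from 0.437 to 1.20 and 1.85 to 2.13 CPM with 4 of 5 at 0 in a library. Skeletal muscle markers (4 of 8) ran from 9.99 to 30.6 and 54.0 to 112 CPM with none at 0. Adipocyte markers (0 of 3 tested) ran from 19.3 to 35.2 and 42.3 to 70.5 CPM with Lep at 0 in a library. Most of the adipocyte sum was Fabp4, at 27.2 CPM on average in vehicle and 53.5 CPM in TP-18 tumors. In TP-18 2, Adipoq, Cidec and Cfd had 3, 5 and 15 reads, below every vehicle tumor, while Plin1 at 4 reads was not. Red blood cell markers (4 of 5 lower) ran from 66.3 to 395 and 14.8 to 33.9 CPM, with Slc4a1 among those at 0 in a library. Skin keratinocyte markers, 1 of the lists that overlapped, were uneven. They summed to 1.68 to 3.37 CPM in vehicle and to 11.0, 1.64 and 41.8 CPM in TP-18 tumors 1, 2 and 3. The part of any of these in the Ptger4 and Ptger2 values was not tested.

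Epithelial markers were low for tumors labelled as carcinoma. Of the 8 epithelium and carcinoma markers 6 missed the filter, Epcam had 0, 0 and 2 reads in vehicle and 7, 8 and 24 in TP-18 tumors, and the list summed to 10.1 to 19.4 CPM over all tumors, mainly from Krt18 and Cdh1. Krt18 had 300, 338 and 416 reads in vehicle and 224, 274 and 156 in TP-18 tumors (log2 difference -0.86, adjusted p = 0.0649). Cdh1, which encodes E-cadherin, went the other way, with 37, 68 and 77 reads against 131, 137 and 195 (1.15, adjusted p = 0.0647).

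Between tumors of the same group, the deviations of Ptger2 and Ptger4 from the group means had a Pearson correlation of 0.21. It rests on 6 tumors, which share the library preparation, too few to show whether these receptors follow each other. Ptger2 deviated with the mean log2 level of macrophage and monocyte markers (r = 0.97) and of T cell markers (0.88), and its order from vehicle 2 through vehicle 3, vehicle 1, TP-18 1 and TP-18 3 to TP-18 2 was also that of the summed CPM of the macrophage and monocyte markers. That sum hardly differed between TP-18 3 and TP-18 2, at 1745 and 1751 CPM, where Ptger2 measured 1.59 and 3.15 CPM. Ptger4 had a correlation of deviations of 0.75 with dendritic cell, 0.70 with adipocyte, 0.53 with skin keratinocyte, 0.44 with mast cell and 0.41 with B cell markers. It was 0.22 with macrophage and monocyte, 0.19 with T cell and -0.14 with NK cell markers. Ptger1 had 0.80 with dendritic cell, 0.75 with adipocyte, 0.56 with skin keratinocyte, 0.85 with mast cell and 0.71 with B cell markers. The deviations of Ptger1 and Ptger4 correlated at 0.84, so these values were not particular to Ptger4. Correlations of Ptger1 share the uncertainty of its counts. For Ptgir the highest values were 0.83 with fibroblast and 0.81 with neutrophil markers. Fibroblast markers summed to 4019 CPM in vehicle 3, 3258 in TP-18 2 and 2871 in TP-18 3, the tumors with most Ptgir, and to 1909 to 2253 CPM in the others. These values describe 6 tumors, carry no test and were picked after 16 lists had been computed for each receptor.

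**Figure D4:**
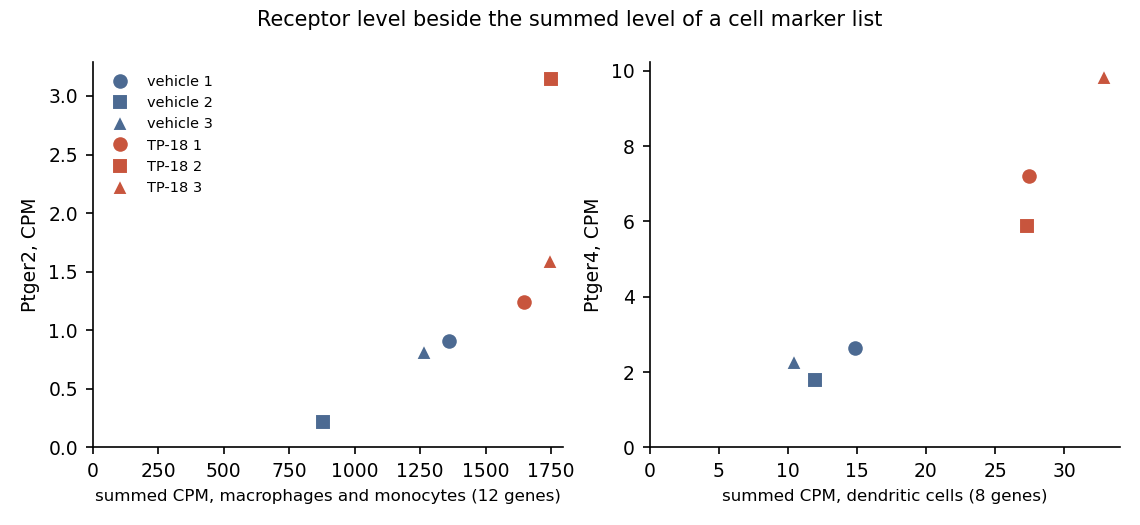
The level of Ptger2 (left, CPM) is plotted against the summed CPM of 12 macrophage and monocyte markers, and that of Ptger4 (right, CPM) against the summed CPM of 8 dendritic cell markers, 1 point per tumor, on linear axes from 0. The tumors fall in the same order on both axes on the left, and on the right the 3 TP-18 tumors lie above and to the right of the 3 vehicle tumors. Both lists were chosen after their values were seen.

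The genes nearest to each receptor were sought by Pearson's r of log2 CPM over the 6 tumors, among 11928 other protein-coding genes whose mean was 0 or more. For Ptger4 these were 2610524H06Rik (r = 0.997), Pigc (0.996) and Efcab14 (0.993), whose deviations within groups correlated at 0.98, 0.96 and 0.91. For Ptger2 they were Ifi204 (0.994), Cd300a (0.994) and Tmem86a (0.992), with 0.99, 0.99 and 0.98 within groups. The values within groups come from the same data that picked these genes, so they are no separate support. For Ptgir they were Gpc4 (0.998), Tcaf1 (0.994) and Cep295nl (0.986), and for Ptger1 they were Abcf3 (0.983), Ltv1 (0.982) and Ctnnbl1 (0.98). With 6 tumors, r of 0.95 or more was reached by 200 genes for Ptger4, 99 for Ptger2, 49 for Ptger1 and 21 for Ptgir, so the names rest on small margins.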

How the data were processed

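RNA sequencing of 6 tumors (3 vehicle, 3 TP-18) was analysed from 2 deposited tables. Per the labels, RNA came from TRIzol extraction and VAHTS Universal V6 libraries, and the submitters' processing notes name fastp, HISAT2, HTSeq and GRCm38. The sources used here state no versions, strandedness or handling of reads with several matches. The authors' count table holds whole reads per gene with no normalization (34813482 to 36489081 per tumor), and their FPKM table divides each count by a gene length and the library total.

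Counts were tested in R 4.3.3 with edgeR 4.0.16 (filterByExpr with minimum count 10 and minimum total 15, TMM, robust quasi-likelihood F test, group only), two-sided, with Benjamini-Hochberg adjustment over 14189 genes and calls under 0.05. CPM values are TMM-scaled, SE comes from the F statistic, and errors are SD over 3 tumors. No set test was run. The test was checked on simulated data. Named genes are the receptors, up to 3 called members of each pathway list by p (or the 1 with the smallest p where none was called), the 3 nearest genes to each receptor, and genes overlapping a receptor, of which some are not reported here. Members, lists and rules were chosen with earlier results of these data known. Alternatives used DESeq2 1.42.0 and limma 3.58.1.

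Gene positions and promoter sequences came from RefSeq GRCm38.p6 by Entrez ID, and exon overlaps from GENCODE M21 on GRCm38. Of the 5 receptors 4 had a promoter sequence. Intervals and floors from reads cover counting error only.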

Additional observations from a re-analysis of the deposited data

How the results depend on the processing

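Ptger4 kept its direction and its call under all 17 alternatives, at log2 changes of 1.04 (FPKM with a pseudocount of 1, which understates low genes) to 1.93. Ptger2 missed the threshold under 16 and passed under DESeq2 at 1.61. Ptgir missed it under all 17. Ptger1 missed it under all 17 and turned to -0.031 without TP-18 3. With 1 library left out, changes ran from 1.55 to 1.93 for Ptger4, 1.12 to 1.96 for Ptger2, 0.10 to 0.54 for Ptgir and -0.03 to 0.25 for Ptger1. The difference in the Ptger4 to Ptger2 ratio was 0.11 with a prior count of 2, and -0.30 to 0.56 with 1 library left out. With 1 library left out, mean FPKM of Ptger3 ran from 0.00661 to 0.0198 in vehicle and 0.0390 to 0.0956 in TP-18 tumors. On log2 FPKM, 0 of the 3 genes nearest to Ptger1 and 1 of 3 for Ptger2 were named again.

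The number of genes called higher and lower, 1006 and 747, was less stable. It ran from 388 to 1216 and from 111 to 1023 with 1 library left out, became 1609 and 1413 at an adjusted p under 0.10, and was 1454 and 1202 in DESeq2. The FPKM alternatives, with library totals in place of TMM scaling, gave 1294 higher and 207 lower with a pseudocount of 1, 1308 and 219 with 0.1, and 751 and 95 without a filter. On log2(FPKM + 0.1) the median change of all genes in both fits was 0.13, against -0.01 with TMM. With the replicate number as a block 547 were higher and 231 lower, and Ptger4 passed at 1.76 (adjusted p = 0.0222) while no receptor's call changed. The labels state no pairing, and deviations of tumors with equal numbers correlated at 0.24, -0.083 and -0.036, with vehicle 3 closest to TP-18 2 (0.306), so the block is given here alone. The cause of these shifts was not tested. Depth limits Ptger3, with 0 to 2 reads per vehicle tumor, and Ptger2, with 7 to 32.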
